A study of Mus musculus with 4 samples.

Results

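The miR-23/27/24 family of the mouse is encoded by a pair of short clusters, each with 1 hairpin for miR-23, miR-27 and miR-24. Its members were taken by symbol from a small RNA table: Mir23a, Mir27a and Mir24-2 of the first cluster, Mir23b, Mir27b and Mir24-1 of the second, and 2010111I01Rik, the gene that hosts the second cluster. These 7 genes, 6 of them hairpins, were found among 141239 features, of which 2022 are typed as miRNA hairpins. RNA came from RAW264.7, an established mouse macrophage-like line, and from the extracellular vesicles that it shed. All cells carried an inducible short hairpin RNA, either the non-silencing shNS or shDis3l2, which is directed at Dis3l2, an exonuclease that degrades RNAs with uridine tails. All cells received doxycycline at 1 µg per mL to induce the hairpin, for 3 days and then for 24 h of vesicle collection in medium with vesicle-depleted serum. Cells were seeded in 15 flasks, vesicles were floated on a sucrose gradient, and the vesicles alone were treated with micrococcal nuclease. The 4 groups (cells or vesicles, shNS or shDis3l2) have 1 library each, so no difference below has a replicate check. All intervals are 95% intervals that cover counting error only.

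In animals, a clustered miRNA is transcribed within a longer primary transcript, from which Drosha and Dgcr8 cut each hairpin and Dicer1 then cuts a duplex. One strand of the duplex is loaded into an Argonaute protein and recognises target RNAs mainly through its seed, bases 2 to 8 from the 5′ end. Hairpins of 1 cluster start from the same primary transcript, but their mature levels can differ because processing and decay act on each one separately. In macrophages and other haematopoietic cells the miR-23/27/24 miRNAs are known as regulators of inflammatory signalling, lipid handling and lineage choice.

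Mature sequences of the main products are shown because they set which features can be told apart in these data. They were copied from RefSeq on GRCm38.p6, which gave 10 different mature sequences for the 6 hairpins, and each runs 5′ to 3′ with the seed in capitals.
miR-23a-3p: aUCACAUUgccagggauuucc
miR-27a-3p: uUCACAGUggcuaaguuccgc
miR-27b-3p: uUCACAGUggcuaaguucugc
miR-24-3p: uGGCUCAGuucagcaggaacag
The miR-27 sequences share the seed UCACAGU and their first 18 bases, and they differ by 1 substitution, C19U, counted from the 5′ end with the miR-27a base first. A read that ended before that base would fit both Mir27a and Mir27b. Mir23b likewise holds the first 18 bases of miR-23a-3p, so a short read of it would fit both Mir23a and Mir23b. The seed of miR-23a-3p is UCACAUU. The seed of miR-24-3p, GGCUCAG, belongs to neither of the other families. miR-23b-3p is named only.

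The hairpins Mir24-1 and Mir24-2 are shown because the same mature miR-24-3p, in capitals, lies in both.
Mir24-1: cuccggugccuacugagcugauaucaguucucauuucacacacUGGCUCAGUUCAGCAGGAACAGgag
Mir24-2: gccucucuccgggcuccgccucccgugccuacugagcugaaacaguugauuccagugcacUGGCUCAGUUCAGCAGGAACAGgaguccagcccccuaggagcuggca
The longest run of bases that these hairpins share is 28 nt, against 20 nt for Mir23a with Mir23b and 20 nt for Mir27a with Mir27b. Whole miR-24-3p also lies in transcript 2010111I01Rik-205, so that 3 features on the sense strand hold it. No hairpin total here can therefore say from which cluster a miR-24-3p molecule came.

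On GRCm38 the first cluster covers 404 nt of the plus strand of chromosome 8. Mir23a lies at chr8:84208518-84208592, Mir27a at chr8:84208672-84208758 and Mir24-2 at chr8:84208815-84208921. In GENCODE M21 no transcript of another type contains any of these hairpins on that strand, and the lincRNA Gm26532 overlaps only the last 2 nt of Mir24-2, with 3 counts in shNS cells and 0 in the other 3 libraries. The second cluster covers 792 nt of the plus strand of chromosome 13, with Mir23b at chr13:63300484-63300557, Mir27b at chr13:63300712-63300784 and Mir24-1 at chr13:63301208-63301275. It lies inside 2010111I01Rik (chr13:62964893-63326096), a gene with 28 transcripts in the table, and on the opposite strand inside an intron of Fancc, a DNA repair gene. Mir23b is intronic in the host transcripts that span it. Mir27b is intronic except in 2010111I01Rik-209, a transcript marked for nonsense-mediated decay whose exon holds the whole hairpin. Mir24-1 is exonic in 2010111I01Rik-205, another such transcript, whose exon 2 (chr13:63301122-63301306) holds the whole hairpin.

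**Figure D1:**
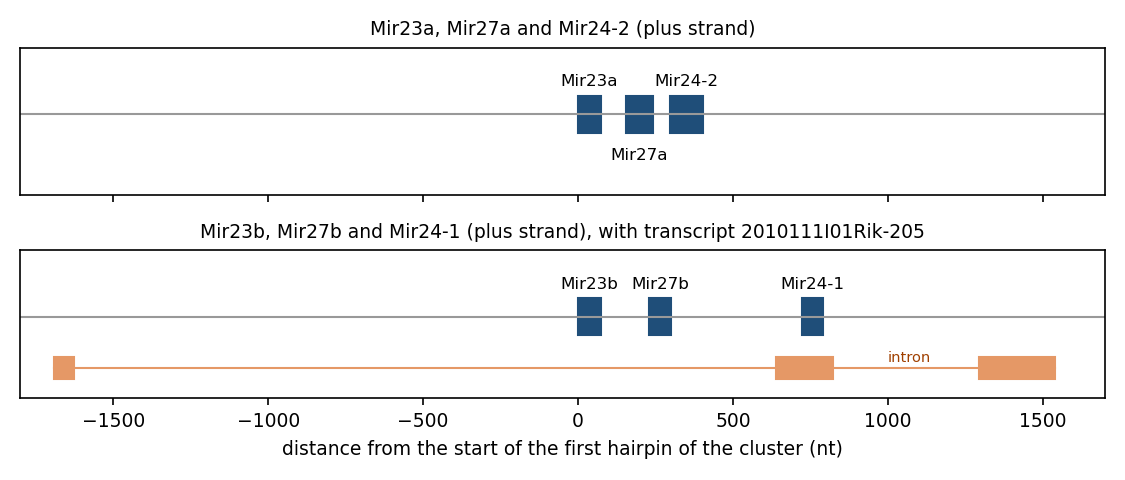
Maps of both clusters, drawn to scale, with distance in nt from the start of the first hairpin on the x axis. Blue boxes are hairpins and orange boxes are the exons of 2010111I01Rik-205 joined by its introns; the second exon encloses Mir24-1, while Mir23b and Mir27b fall in its first intron.

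Total counts per library ran from 17612144 to 19740443. The share of counts on miRNA hairpins was 68.3% (shNS) and 61.2% (shDis3l2) in cells and 19.1% and 10.5% in vesicles, so members were scaled to the miRNA total of their library as CPM (counts per 1000000 miRNA counts). Dis3l2 counts were 41 (shNS) and 13232 (shDis3l2) in cells, the reverse of what a knockdown label names, and 1713 and 1894 in vesicles. Counts of short fragments do not tell Dis3l2 messenger RNA from RNA of the induced hairpin, so they do not check the labels. The groups are called by their labels throughout, and every direction drawn from a label rests on it. The macrophage miRNAs Mir142, Mir146 and Mir155 were counted in all 4 libraries (Mir142 at 121711 to 1118135). The hairpin Mir223, of a myeloid miRNA, was at 0 in all 4. That 0 does not show that the miRNA was absent, since reads of a hairpin can be counted on an overlapping transcript. Such a case is described below for a member of the family, and whether it held for Mir223 was not tested. In bulk RNA, fewer cells with a miRNA and fewer molecules per cell cannot be told apart.

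Of the 7 members, 5 had at least 100 counts in every library: Mir23a, Mir27a, Mir23b, Mir27b and 2010111I01Rik. Mir27b was the most abundant hairpin of the family in each library and ranked 16th, 16th, 19th and 16th of all miRNA hairpins in the order shNS cells, shDis3l2 cells, shNS vesicles and shDis3l2 vesicles, an order kept below. CPM values of different hairpins were compared without a correction for length. This assumes that most reads span a mature miRNA whole, which the counts cannot check.

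Mir27b, which gives miR-27b, had 268616, 258824, 39518 and 32819 counts, or 19926, 22959, 11364 and 17699 CPM. Its level was highest in the shDis3l2 cells and lowest in the shNS vesicles. Its sister Mir27a, which gives miR-27a from the first cluster, had 179050, 52253, 31745 and 11220 counts, or 13282, 4635, 9129 and 6051 CPM. Mir27a was highest in the shNS cells and stood lower in all the other libraries, lowest in the shDis3l2 cells.

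Mir23a had 95395, 60608, 27938 and 11516 counts, or 7077, 5376, 8034 and 6210 CPM. Mir23b, the least abundant of the well measured hairpins, had 33947, 22114, 9700 and 5175 counts, or 2518, 1962, 2789 and 2791 CPM. Both miR-23 hairpins were lowest in the shDis3l2 cells, and each stayed within a narrower CPM range over the 4 libraries than Mir27a. The order Mir27b, Mir27a, Mir23a, Mir23b held in both shNS libraries. In both shDis3l2 libraries Mir23a stood above Mir27a, and in the shDis3l2 vesicles by a ratio whose interval reaches 1.

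**Figure D2:**
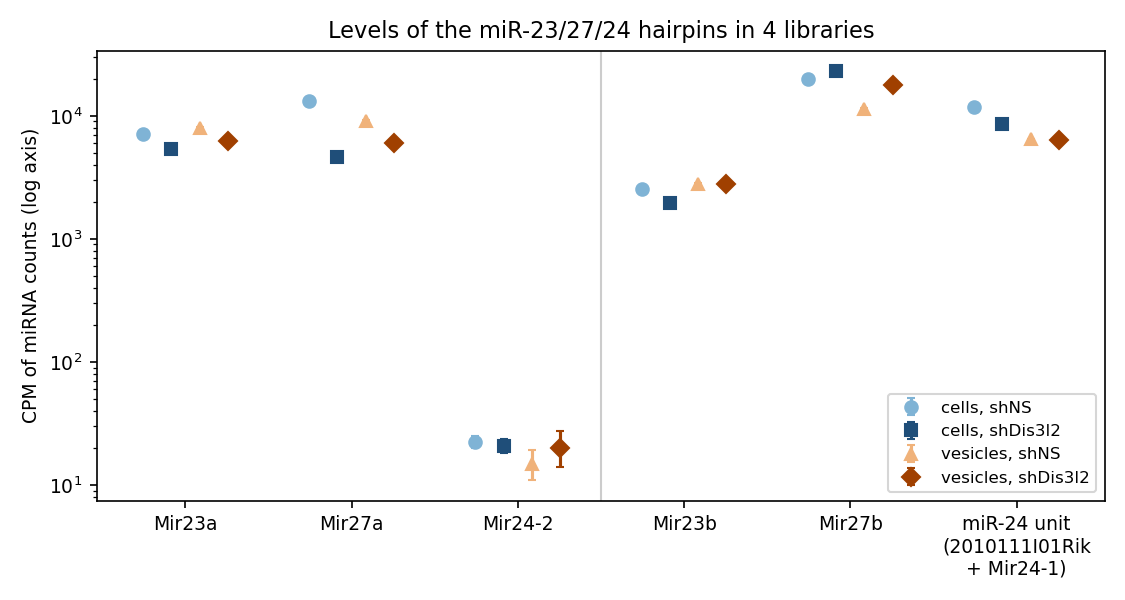
Level of each hairpin in the 4 libraries as CPM of miRNA counts on a log axis, 1 point per library, with 95% counting intervals that are mostly smaller than the points. Mir27b lies highest in each library, Mir27a is at 13282 CPM in shNS cells and 4635 in shDis3l2 cells, and Mir24-2 stays between 14.7 and 22.5 CPM.

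Among the features that hold miR-24-3p, the deposited counts sat almost wholly on the host gene. 2010111I01Rik-205, a spliced transcript of 493 nt, held 158552, 96283, 22304 and 11815 counts, which is at least 99.3% of the counts of the host in each library. The other host transcripts together held at most 230 counts per library, led by 2010111I01Rik-209 with 189, 158, 17.3 and 23. Mir24-1 itself was listed at 0, 4, 0 and 0 counts, and Mir24-2, whose mature product is the same, at 303, 232, 51 and 37. No fold is given for Mir24-1, since all of its values lie at or near the floor of 3 counts.

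The estimated counts of reads that fit several features depend on how the counting divided them. Mir24-1 and its host were therefore summed as 1 unit, called the miR-24 unit. That its counts are miR-24 reads is an assumption from the shared sequence, since counts per transcript give no read positions. Sums for miR-24 below rest on the same assumption. The CPM of the unit uses the miRNA total, which leaves out the host counts because the host is not typed as miRNA. Adding the transcripts whose exons hold a hairpin to that total moved log2 ratios by about 0.01 or less. The unit held 158782, 96486, 22373 and 11895 counts, or 11779, 8559, 6434 and 6415 CPM, higher in both cell libraries than in both vesicle libraries. On this scale the unit stood between Mir27b and Mir23b in each library. Mir24-2 made up 0.190% to 0.310% of the unit and Mir24-2 together. Mir3074-1, annotated on the opposite strand over Mir24-1, had 89, 113, 70 and 68 counts, and Mir3074-2, opposite Mir24-2, had 0 in all 4.

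The summed miR-27 hairpins gave 33209, 27594, 20493 and 23750 CPM, and the summed miR-23 hairpins 9595, 7338, 10823 and 9002 CPM. The miR-27 sum was thus highest in the shNS cells and the miR-23 sum in the shNS vesicles, and the highest value over the lowest was smaller for the miR-27 sum than for Mir27a or Mir27b.

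In cells, the label comparison asks how the miRNAs differ between the libraries labelled shDis3l2 and shNS. Doxycycline was given in both. Mir27a was lower in the cell library labelled shDis3l2, with a log2 ratio to shNS of −1.52 (interval −1.533 to −1.505). The other measured members lay within 2-fold: Mir23a at −0.40, Mir23b at −0.36 and the miR-24 unit at −0.46 were below shNS, Mir27b at 0.20 was above it, and Mir24-2 was at −0.13 with an interval that includes 0. A hairpin was counted as apart when its ratio was at least 2-fold, its interval excluded 1 and it had at least 100 counts over both libraries. By that rule 1 of 5 measured hairpins of the clusters was apart, Mir27a, against 16.5% of all 206 measured hairpins, of which 9.22% were lower and 7.28% higher. The median log2 ratio over all 206 was 0.03, with quartiles of −0.31 and 0.29. Only 8 of those hairpins lay below Mir27a, and 138 lay below Mir27b. The summed miR-27 was at −0.27, between its members, with the more abundant Mir27b slightly above shNS and Mir27a below it. Markers of endothelial cells also differed in this comparison: Mir126a had 2979 counts under shNS and 13084 under shDis3l2, and its host Egfl7 2490 and 10450, while Pecam1 had 69 and 56, Kdr 14 and 22, and Cdh5, Tek and Tie1 at most 8 in either cell library. The summed list of 7 endothelial markers was at 282 and 1283 CPM of all features, almost all of it from the Mir126a and Egfl7 locus. Its part in the ratios of the miR-23/27/24 members was not tested.

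In vesicles the same label comparison gave smaller ratios for Mir27a. Mir27a was at −0.59 (interval −0.62 to −0.56), Mir23a at −0.37, Mir23b at 0.00, the miR-24 unit at −0.00 and Mir27b at 0.64 (interval 0.62 to 0.66). Of the 4 hairpins of the clusters with enough counts, 0 were apart, against 23.6% of 195 hairpins, of which 17.4% were higher and 6.15% lower. The median over all 195 was 0.22, so Mir27a, Mir23a, Mir23b and the miR-24 unit stood below it and Mir27b above it. These signs depend on the scale. With CPM of all features, on which each vesicle ratio is lower by 0.86, the 5 well measured features were all below 0, from −1.45 for Mir27a to −0.22 for Mir27b, and Mir27a and Mir23a were past 2-fold, as were 50 of 195 hairpins in that direction. With edgeR's TMM factors (trimmed mean of M-values, a scaling by the bulk of the hairpins) or DESeq2 size factors, Mir23b and the miR-24 unit were also below 0, and Mir27b stayed above it.

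**Figure D3:**
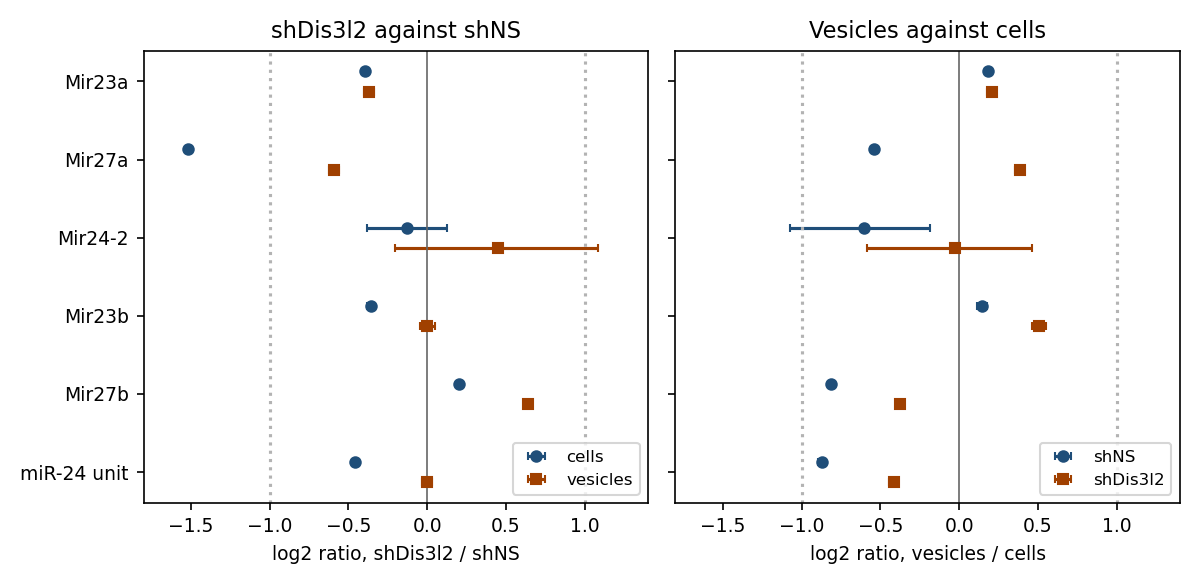
Log2 ratios of CPM for 6 features, shDis3l2 over shNS on the left (blue circles for cells, orange squares for vesicles) and vesicles over cells on the right (blue circles for shNS, orange squares for shDis3l2), with 95% counting intervals and dotted lines at 2-fold. Only Mir27a in cells, at −1.52, lies past a dotted line, and the intervals of Mir24-2 are wide because its counts are low.

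The vesicle libraries were compared with the cell libraries under each label. Under shNS, Mir27a at −0.54, Mir27b at −0.81, the miR-24 unit at −0.87 and Mir24-2 at −0.60 were lower in vesicles relative to the miRNA total. Mir23a at 0.18 and Mir23b at 0.15 were higher, on the miRNA scale only. Under shDis3l2, Mir27b at −0.38 and the miR-24 unit at −0.42 were again lower, and Mir23a at 0.21 and Mir23b at 0.51 higher. Mir27a was at 0.38, above its level in cells. For Mir23a, Mir23b and Mir27a this again held on the miRNA scale only. Mir24-2 was at −0.03 under shDis3l2, with an interval of −0.59 to 0.46 that includes 0. None of the 5 measured hairpins (0 of 5) was apart under either label, against 40.5% of 210 hairpins under shNS (33.8% higher and 6.67% lower) and 46.6% of 206 under shDis3l2 (37.4% higher and 9.22% lower). The medians over all measured hairpins were 0.44 and 0.50. All members under shNS, and all but Mir23b under shDis3l2, stood below those medians. Mir23b lay at 0.51, next to the median.

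With CPM of all features, TMM factors or DESeq2 size factors, Mir23a and Mir23b were lower in vesicles under both labels, and so was Mir27a under shDis3l2. Mir27b and the miR-24 unit were lower in vesicles on each of these scales and were past 2-fold on all 3 of them under both labels. Mir27a was past 2-fold on all 3 under shNS, and on the scale of all features all 5 well measured features were past 2-fold lower under both labels. On that scale 135 of 210 hairpins were at least 2-fold lower under shNS and 145 of 206 under shDis3l2, against 41 and 72 with TMM factors and 57 and 83 with DESeq2 size factors. Erythroid and serum markers, RNAs that vesicle preparations can carry from medium, differed between the compartments: Mir451a had 4, 3, 376 and 157 counts and Mir144 had 5, 0, 477 and 266, and the 5 markers of that list in the table summed to 13, 8, 923 and 594. Their part in the vesicle levels of the members was not tested.

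Compartment and label were also fitted together as additive terms over the 4 libraries for 256 hairpins, with the miR-24 unit in place of Mir24-1. This fit has 1 residual degree of freedom and treats any difference between the label ratios of cells and vesicles as error. It was run on the miRNA scale only. TMM factors lower each vesicle to cell ratio by 0.62 under shNS and 1.04 under shDis3l2. Which hairpins pass, above all for the compartment, can therefore change with the scale. For the label, Mir27a was at a log2 of −1.06 and was lower under shDis3l2 in both compartments (adjusted p = 0.0432 by edgeR's quasi-likelihood test with Benjamini-Hochberg adjustment, 0.058 by DESeq2). In that edgeR test 4.69% of the hairpins passed for the label. No other member passed it: Mir27b was at 0.42 (edgeR adjusted p = 0.253) and Mir23a at −0.38 (edgeR adjusted p = 0.404). For the compartment, where 46.1% of hairpins passed, Mir27b was at −0.59 (edgeR adjusted p = 0.022, DESeq2 0.0729) and the miR-24 unit at −0.64 (edgeR adjusted p = 0.0364, DESeq2 0.0547), both lower in vesicles under both labels. Mir23a, Mir23b, Mir27a and Mir24-2 did not pass for the compartment.

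Ratios between features of the same library do not depend on the scale. They do depend on how the counting divided reads that fit both features. Mir27a and Mir27b share a run of 20 nt, as do Mir23a and Mir23b, so these ratios describe estimated counts. Mir27b over Mir27a was 1.50 in shNS cells, 4.95 in shDis3l2 cells, 1.24 in shNS vesicles and 2.93 in shDis3l2 vesicles. Mir27b thus held 60.0% of the estimated miR-27 counts in the shNS cells and 83.2% in the shDis3l2 cells, and 55.5% and 74.5% in the vesicles. The log2 change of this ratio with the label was 1.72 in cells and 1.23 in vesicles, in the same direction in both compartments.

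Mir23b over Mir23a, the matching ratio for miR-23, was 0.356, 0.365, 0.347 and 0.449. It was thus nearly level over the first 3 libraries and higher in the shDis3l2 vesicles. Its log2 change with the label was 0.04 in cells and 0.37 in vesicles. The same pair of clusters therefore differed between the labels at the miR-27 position by more than at the miR-23 position, in cells and in vesicles. With miR-23 and miR-27 summed, the second cluster over the first was 1.10, 2.49, 0.825 and 1.67.

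Within the first cluster, Mir27a over Mir23a was 1.88, 0.862, 1.14 and 0.974. Neighbouring hairpins of the cluster thus stood in unlike proportions in each library, with a log2 change with the label of −1.12 in cells and −0.22 in vesicles. Within the second cluster, Mir27b over Mir23b was 7.91, 11.7, 4.07 and 6.34, higher under shDis3l2 in both compartments (log2 changes of 0.56 and 0.64) and lower in vesicles under both labels (−0.96 and −0.88).

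The miR-24 unit over Mir23b was 4.68, 4.36, 2.31 and 2.30. This ratio barely differed between the labels, by −0.10 in cells and −0.005 in vesicles on the log2 scale, and was lower in vesicles, with log2 changes of −1.02 under shNS and −0.92 under shDis3l2. The unit over Mir23a was 1.66, 1.59, 0.801 and 1.03. Between the families, summed miR-27 over summed miR-24 was 2.81, 3.22, 3.18 and 3.69, a narrower range than miR-27 over miR-23, which was 3.46, 3.76, 1.89 and 2.64. miR-23 thus made up a larger part of the estimated counts of the family in both vesicle libraries than in the matching cell libraries. Those counts take the host as miR-24.

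**Figure D4:**
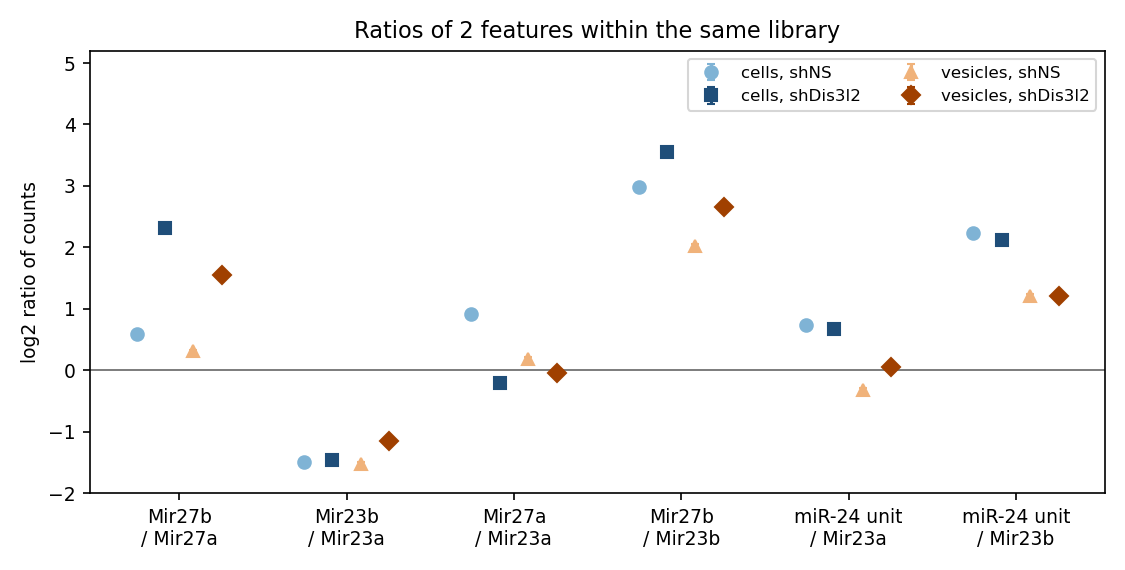
Log2 ratio of the counts of 2 features in the same library, 6 pairs on the x axis and 1 point per library, with 95% counting intervals that are smaller than the points. For Mir27b over Mir27a both shDis3l2 libraries (4.95 and 2.93 as ratios) lie above both shNS libraries (1.50 and 1.24), whereas for Mir23b over Mir23a 3 libraries lie together.

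Pairs of hairpins with the same miRNA number and different letters were listed for comparison after these values had been seen. Both hairpins of a pair had to have at least 100 counts in every library. Pairs with a hairpin under that minimum were left out, so the ranks below hold among the listed pairs only. The miR-23 and miR-27 pairs are among them. Over 68 such pairs of 12 numbers, many of which share a hairpin, the median absolute log2 change with the label was 0.27 in cells and 0.35 in vesicles, and 6 pairs in cells and 5 in vesicles moved by more than Mir27b over Mir27a. The pairs with a larger change in cells were those of Mirlet7e with Mirlet7c-1, Mirlet7c-2, Mirlet7f-1 and Mirlet7i, Mir125a with Mir125b-2 and Mir99a with Mir99b. Mir27b over Mir27a thus ranked among the larger changes of these pairs, behind 6 others in cells. Each of those 6 holds Mirlet7e, Mir125a or Mir99b, so they are not 6 independent pairs. Without the let-7 pairs, 2 of 25 pairs in cells and 3 in vesicles moved by more.

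The label ratio in vesicles minus that in cells was 0.93 for Mir27a (interval 0.89 to 0.96), 0.36 for Mir23b, 0.43 for Mir27b, 0.46 for the miR-24 unit and 0.03 for Mir23a, whose interval of −0.01 to 0.06 includes 0. Over 139 hairpins with at least 100 counts in every library the median of this difference was 0.11, with quartiles of −0.25 and 0.58, and 15 hairpins were higher than Mir27a. All of these differences change with the scale, by the same amount for each hairpin. In a recalculation added after the data were seen, TMM factors gave 0.51 for Mir27a, −0.39 for Mir23a and −0.06 to 0.04 for Mir23b, Mir27b and the miR-24 unit, and CPM of all features gave 0.22 for Mir27a and values below 0 for the other 4, from −0.68 to −0.25. Relative to the other hairpins on the miRNA scale, Mir27a lay above the upper quartile and the other members lay between the quartiles.

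**Figure D5:**
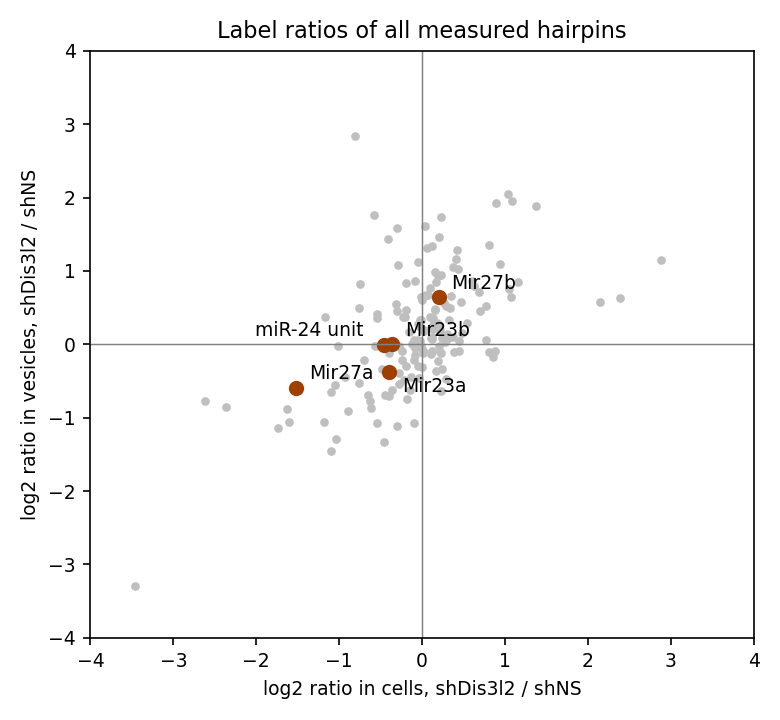
Log2 ratio of shDis3l2 to shNS in cells (x axis) and in vesicles (y axis) for 166 hairpins measured in both comparisons (grey), with the well measured members in orange, and 2 hairpins outside the axes. The members spread from Mir27a at −1.52 and −0.59 to Mir27b at 0.20 and 0.64, with Mir23a, Mir23b and the miR-24 unit between them.

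The hairpins with the most similar profile were found for each member by the Euclidean distance between log2 CPM values of the 4 libraries, each profile centred on its own mean, among 138 other hairpins (139 for the miR-24 unit). Mir27a was closest to Mir99b at a distance of 0.23, then to Mir21a at 0.49 and Mir182 at 0.51. Mir99b had 86785, 23513, 17335 and 5003 counts, and so was also lower in the shDis3l2 cells than in the shNS cells. Mir27b was closest to Mir301b at 0.175, Mir674 at 0.25 and Mir191 at 0.32, and Mir23a to Mir340 at 0.10, Mir33 at 0.265 and Mir30a at 0.274. For Mir23b the closest were Mir221, Mir199a-1 and Mirlet7d at 0.18 to 0.23, and for the miR-24 unit Mir30c-2, Mir190a and Mirlet7f-2 at 0.28 to 0.34. Among the members themselves, Mir23b was the fourth closest hairpin to Mir23a at 0.30, whereas Mir27a and Mir27b lay 1.58 apart and ranked 85th for each other. With 4 libraries these distances are a description, and the miR-23 hairpins were near each other in them while the miR-27 hairpins were not.

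Genes that make or use miRNAs were read from a list of 19 symbols, of which 17 were in the table. Reads of messenger RNA in a small RNA library are fragments, and their CPM was taken over all features. In cells 7 of the 17 had at least 100 counts over both libraries and 0 were at least 2-fold apart, against 13.8% of 3277 genes higher and 4.97% lower under shDis3l2. Ago2, the Argonaute protein that can cleave targets, had 179, 114, 1247 and 1550 counts, and Dicer1 84, 68, 374 and 453. Both were within 2-fold between the labels in each compartment and had higher counts in both vesicle libraries. In vesicles 14 of the 17 had enough counts and 1 was higher under shDis3l2, Ago1 with 4 and 111 counts, against 10.4% of 8293 genes higher and 2.42% lower. In vesicles against cells, 8 of 10 measured genes of the list were higher under shNS and 11 of 12 under shDis3l2, against 74.5% and 76.9% of all genes measured. Tut4 and Tut7, which add uridines to small RNAs, had 28, 41, 88 and 147 counts and 71, 73, 98 and 141 counts, and neither was 2-fold apart between the labels where it had enough counts.

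Of 15 genes known as targets of miR-23, miR-27 or miR-24, 5 had at least 100 counts in the cell libraries and 11 in the vesicle libraries, and 0 were 2-fold apart between the labels in either, against 13.8% of genes higher and 4.97% lower in cells and 10.4% and 2.42% in vesicles. The median log2 label ratio was −0.04 in cells and 0.33 in vesicles. Runx1, a transcription factor of blood cells and a known miR-27 target, had 6287, 4889, 222 and 271 counts, with label ratios of −0.26 in cells and 0.33 in vesicles. It was the only gene of the list at least 2-fold lower in vesicles, with log2 ratios of −4.70 under shNS and −4.11 under shDis3l2, where 13.8% and 13.1% of all genes were lower. In that comparison 5 of 9 and 7 of 9 measured genes of the list were higher, against 74.5% and 76.9% of all genes. Tab2, an adaptor in inflammatory signalling, had 549, 498, 385 and 556 counts and did not differ by 2-fold between the labels. Fragments of messenger RNA at these counts do not measure the level of the protein or of the whole transcript.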

How the data were processed

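Small RNA libraries of RAW264.7 cells and vesicles came from the QIAseq miRNA kit, with reads of 50 nt, per the labels' protocols. Per the submitters' processing notes, cutadapt, Salmon and Novoalign were used with builds GRCm38 and mm10, versions not stated. The authors deposited 1 table of estimated counts per transcript, of which 6.56% of the values above 0 are whole within 0.001. The sources used here do not say whether reads were collapsed by molecular tags. Names and positions came from GENCODE M21.

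Counts were rounded. Each hairpin value includes both arms and was scaled to the miRNA total. Log2 ratios used a pseudocount of 0.5 and exact conditional (Clopper-Pearson) 95% intervals, which treat reads as independent. Single comparisons have no p-value. Additive fits used edgeR 4.0.16 (quasi-likelihood) and DESeq2 1.42.0 in R 4.3.3, and the rest Python 3.11.15 with scipy 1.17.1. The listing and the fits were tested on simulated counts, with counting error only for the listing and a fixed spread for the fits. Such counts cannot check the spread between replicate libraries, which 1 library per group leaves unknown.

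The named genes are the 7 members, transcripts whose exons or introns hold a hairpin, the 3 hairpins most like each member, measured genes of the lists and Dis3l2. Members and lists were chosen with earlier results of these data known. Epithelial and muscle markers summed to at most 729 and 142 counts per library, and macrophage markers to between 188334 and 1599852. Almost all of the macrophage sum came from Mir142 and Mir146. Alternatives were other scales, count minimums, a pseudocount of 5, thinning and other sums for miR-24.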

Additional observations from a re-analysis of the deposited data

Results flagged for a closer look

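The vesicle to cell ratio of Mir27a had opposite signs under the labels. Its log2 ratio was −0.54 under shNS, with 13282 CPM in cells and 9129 in vesicles, and 0.38 under shDis3l2, with 4635 CPM in cells and 6051 in vesicles. Each group is 1 library, so this difference was not tested. On the scale of all features, with TMM factors or with DESeq2 size factors both ratios were below 0. The difference between them was 0.93 on the miRNA scale, 0.22 on that of all features, and 0.51 and 0.55 with the TMM and DESeq2 factors, and equals by construction the label ratio in vesicles minus that in cells.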

How the results depend on the processing

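Mir27a stayed more than 2-fold lower under shDis3l2 in cells on all scales tried, between −1.68 and −1.44, and no member that was apart changed sign. Of 176 values of single members under an alternative, 89 left the counting interval and 42 moved by more than 1.5-fold. In 26 the sign changed or the value was 0.0 after rounding. The numbers of hairpins apart moved with the count minimum: in cells by label from 34 to 79 with a minimum of 10 and 95 with none, in vesicles by label from 46 to 110, 132 and, with a minimum of 1000, 20. For vesicles against cells they moved from 85 to 196, 242 and 45 under shNS, and from 96 to 220, 329 and 49 under shDis3l2, with minimums of 10, none and 1000, and to 164 and 178 on the scale of all features. The scale also moved the part of those hairpins that was higher: by label in cells from 44.1% to 31.2% with all features, by label in vesicles from 73.9% to 46.3% with TMM, 47.6% with DESeq2 factors and 12.3% with all features, and in vesicles against cells from 83.5% and 80.2% to 54.4% and 41.0%, 43.6% and 37.1%, and 17.7% and 18.5% in the same order. Fitting Mir24-1 alone was not run, since 3 of its 4 values are 0. Counts limit Mir24-2, whose label interval in vesicles runs from −0.21 to 1.08. The labels give no replicate numbers, so the only fit that pairs libraries is the additive one, which compares the compartments within each label.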
